A study of Brassica napus with 48 samples.

Results

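AT1G73600 belongs to the phosphoethanolamine N-methyltransferase family of Arabidopsis and was followed here in flower buds of oilseed rape (Brassica napus). The member is the 1 probe set, of 22810 in the table, that the annotation of the Arabidopsis ATH1 array gives to AT1G73600 alone. It is 1 of 13350 genes that have a probe set of their own there. The gene was chosen by its measured levels on these same arrays, over all 12 groups, and which comparison weighed most is not recorded. Its own levels and differences are therefore given as a description over all groups, with their errors and no test.

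Phosphoethanolamine N-methyltransferases add methyl groups from S-adenosylmethionine to phosphoethanolamine and so make phosphocholine. Phosphocholine is activated to CDP-choline and passed to diacylglycerol, which gives phosphatidylcholine, a main lipid of plant membranes outside the plastid. Choline kinases feed the same pathway from free choline. In anthers the tapetum, the cell layer that nourishes developing pollen, and the pollen itself build large amounts of membrane and storage lipid.

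Both lines, J10 and J03, segregated for a dominant form of genic male sterility. The genotype was MsMsrfrf in sterile and MsMsRfrf in fertile J10 plants, so all J10 plants carried Ms on both homologues and differed at Rf. In J03 it was Msmsrfrf in sterile and msmsrfrf in fertile plants, so all J03 plants were rfrf and differed at Ms. Buds under 1 mm (small), from 1 to 3 mm (middle) and over 3 mm (large) were taken as tetrad, uninucleate and trinucleate stages of pollen. Plants grew in 1 field, and no treatment was applied. Buds held stamens and pistils and came from several plants of a line, and how plants were divided among replicates was not recorded. No age was given beyond bud size.

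The 12 groups had 4 arrays each, numbered 1 or 2 and titled as biol_rep or tech_rep. A tech_rep array was read as the second hybridisation of the biol_rep array with its number, which gives 2 replicates a group (n = 2 throughout). Values are the authors' signal intensities, already scaled to a common mean per array. Signals depend on the probes of each gene, so they do not give the relative amounts of different transcripts. Within groups the correlation of arrays across probe sets was 0.657 to 0.861, with a median of 0.801. In J10 the median correlation was 0.82 for arrays of the same number and 0.794 for arrays of the same kind. In J03 these medians were 0.8 and 0.81, so the J03 arrays did not bear out the reading of the titles. The array least like its group was the tech_rep 2 array of sterile middle J10 buds (mean r = 0.666).

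The probe set had its highest signals in middle and large J03 buds and its lowest in small J10 buds, so both line and bud size went with its level. The buds were bulk samples, in which fewer cells of a type and less RNA per cell cannot be told apart. In large fertile J03 buds its signals were 6715 and 6274 on the biol_rep arrays and 4880 and 4796 on the tech_rep arrays. In middle fertile J03 buds they were 2291, 1948, 1682.5 and 2177 in the same order. In small fertile J03 buds they were 51.0, 476, 170 and 471. The 3 sizes of fertile J03 buds thus formed separate ranges, and in small buds both arrays of replicate 1 lay far below those of replicate 2. Group means were 292 ± 257 in small, 2025 ± 53.6 in middle and 5666 ± 186 in large fertile J03 buds (SD, n = 2).

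Sterile J03 buds shared the higher signals of middle buds but not those of large fertile buds. In small sterile J03 buds the signals were 362 and 589 on the biol_rep arrays and 536 and 363 on the tech_rep arrays. In middle sterile J03 buds they were 3228.5, 1947, 2758.5 and 2358, and in large ones 1670, 2664.5, 1239 and 2081. Middle and large sterile buds overlapped, and all 8 of these arrays lay above all 4 of small sterile buds. The group means were 462 ± 18.9, 2573 ± 595 and 1914 ± 649 (SD, n = 2) from small to large.

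In J10 the signals were dim to moderate in every group. Small fertile J10 buds had 47.3 and 55.7 on the biol_rep arrays and 184 and 345 on the tech_rep arrays. Middle fertile J10 buds had 512, 467, 439 and 203. Large fertile J10 buds had 979, 642, 930 and 634, all above the middle and small ones. The means were 158 ± 59.8, 405 ± 99.7 and 796 ± 224 (SD, n = 2).

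In sterile J10 buds the signal was highest in the middle class on the biol_rep arrays only. Small sterile J10 buds had 57.1 and 38.2 on the biol_rep arrays and 252 and 151 on the tech_rep arrays. Middle sterile J10 buds had 508, 693, 184 and 201, and large ones had 512, 128, 247 and 121. The 3 sizes overlapped. Their means were 125 ± 42.2, 396 ± 71.2 and 252 ± 180 (SD, n = 2).

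**Figure D1:**
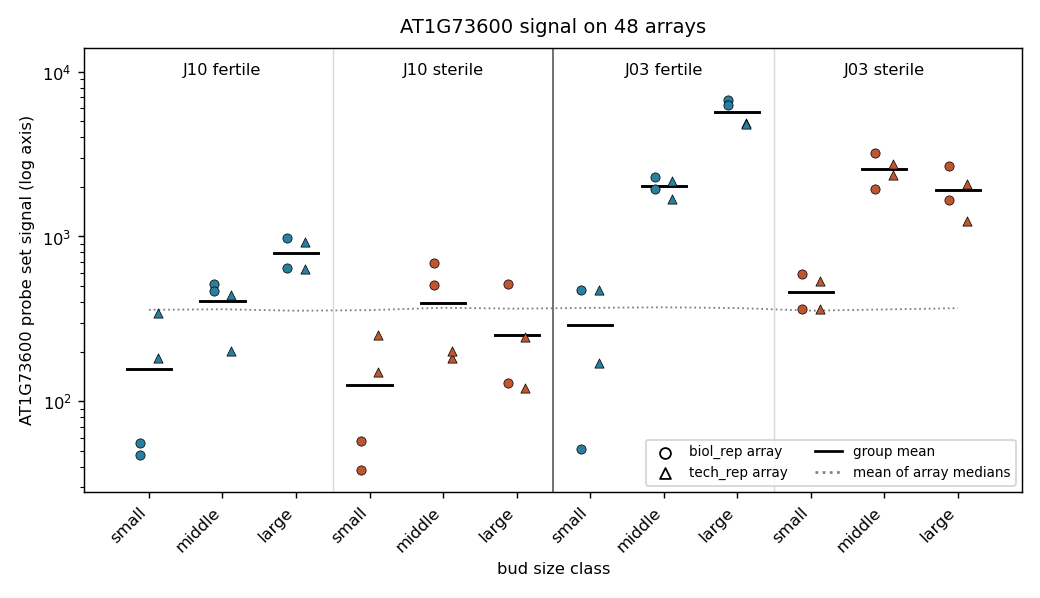
AT1G73600 probe set signal (log axis) on each of the 48 arrays, by line, fertility and bud size. Circles are biol_rep arrays, triangles tech_rep arrays, black lines group means, and the dotted line is the mean of the array medians; middle and large J03 buds lie between 1239 and 6715 and all J10 arrays at or below 979.

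Set in order on the log2 scale, large fertile J03 buds came first. Middle sterile, middle fertile and large sterile J03 buds followed, and then large fertile J10 buds. The gap after the first group was 1.11 and the gap after the fourth was 1.13. The gaps between other neighbours were 0.08 to 0.66. The SE of a difference was 0.37, from the fit across all probe sets. The groups were sorted by these same values, so the gaps are a description and no test. Below large fertile J10 buds the remaining 7 groups had means from 462 down to 125. The span from the lowest to the highest group mean was 4.68 on the log2 scale. It was exceeded by 16 of the 13999 probe sets tested, whose median span was 0.91.

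The position of the probe set within an array gave the same picture. In middle and large J03 buds it lay between the 91.5th and 99.2nd percentile of all probe sets of its array. In small J10 buds it lay between the 7.75th and 48.5th percentile and below the array median on 8 of 8 arrays. In middle and in large J10 buds it exceeded the array median on 5 of 8 arrays each. A level below the median may hold little specific signal, and detection calls were not used here.

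The first question was how sterility went with the signal within a line and size. AT1G73600 was lower in sterile than in fertile large buds of both lines. In J03 the mean signal was 1914 in sterile and 5666 in fertile large buds, a ratio of 0.338. In J10 it was 252 against 796, a ratio of 0.316. All 4 sterile arrays lay below all 4 fertile arrays in each line. That happened for 3.47% of all tested probe sets in J03 and for 5.87% in J10. On the log2 scale the difference was -1.55 in J03 and -1.42 in J10 (SE 0.37 each), and these 2 differences were 0.13 apart (SE 0.52). Of 13999 probe sets, 83 had a larger difference of either sign in large J03 buds and 194 in large J10 buds. The shares of probe sets called by the fit were 0.964% in large J03 and 2.44% in large J10 buds, given as background only, since the gene was chosen with these values known.

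In smaller buds the single arrays of sterile and fertile plants overlapped. The log2 difference was 0.32 in middle and 0.67 in small J03 buds, and -0.11 in middle and -0.14 in small J10 buds (SE 0.37 each). Without replicate 1 of small fertile J03 buds the difference in small J03 buds was -0.0505, and without replicate 2 it was 1.39. The difference in large buds less that in middle buds was -1.86 in J03 and -1.31 in J10 (SE 0.52). These differences between sizes were not tested.

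Pollen markers differed between the same large buds. Of 6 listed markers of maturing pollen 4 were measured, among them the pollen actin gene ACT12 and the tetraspanin gene TET11, and none was at 0. Their summed signal was 714 to 767 in large sterile J03 buds against 6599 to 8066 in large fertile ones. In J10 it was 704.5 to 1069 against 3647 to 5357. All 4 had higher means in large fertile than in large sterile buds of both lines. AT3G07840 was the largest part of the fertile sums, at 3964 ± 843 in large J03 and 2365 ± 1122 in large J10 buds (SD, n = 2). Single ACT12 arrays overlapped in large J10 buds, at 64.4 to 612 in sterile and 275 to 878.5 in fertile buds. In middle J03 buds the sums were 742 to 837 in sterile and 1459 to 2634 in fertile buds. The replicate means of AT1G73600 there were 2993.5 and 2152 in sterile and 1987 and 2063 in fertile buds, with overlapping single arrays. Of 10 tapetum markers 5 remained (AMS, A9, SHT, bHLH091 and ATA27). They summed to 5758 to 10234 in large sterile and 12670 to 16288 in large fertile J03 buds. In J10 these sums were 7467 to 9791 and 13141 to 13935. The 5 tapetum markers did not go one way. SHT, a spermidine acyltransferase gene, made up most of the fertile sums, with 4364 ± 2074 in sterile and 11273 ± 2100 in fertile large J03 buds and 1834 ± 1213 and 9173 ± 548 in J10 (SD, n = 2). A9 had the opposite order, with 1607 ± 567 and 1045 ± 404 in J03 and 4556 ± 527 and 1617 ± 783 in J10. ATA27 also had higher means in sterile large buds, at 726 ± 62.5 against 331 ± 31.7 in J03 and 710.0 ± 167 against 409 ± 274 in J10. AMS and bHLH091 had lower means in sterile large buds of both lines. The part of these cells in the signal of AT1G73600 was not tested.

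Markers of other bud tissues differed in part as well. The sums of the 2 of 7 pistil and ovule markers measured, SPT and INO, were 930 to 1187 in large sterile and 847 to 941 in large fertile J03 buds. In large J10 buds they were 1349 to 1360 and 938 to 1175. INO, a gene of the ovule's outer integument, had 330.0 ± 75.3 in sterile and 133 ± 39.2 in fertile large J03 buds and 659 ± 107 and 363 ± 108 in J10 (SD, n = 2), whereas SPT means were 694 to 760.4 in all 4 groups. The 3 of 5 green tissue markers measured (RCA, PRK and PORB) summed to 11809 to 12119 in large sterile and 9302 to 9682 in large fertile J03 buds. In J10 they summed to 6790 to 6847 against 8864 to 10779, and all 3 had lower means in large sterile buds. In large J03 buds RCA (4117 against 3262) and PRK (6207 against 4504) had higher means in sterile buds. PORB had a slightly lower one there (1639.5 against 1726). Pollen markers had their highest sums in fertile large buds of both lines. The lists were chosen with earlier results of these data known, so these sums cannot check the labelled stage.

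**Figure D2:**
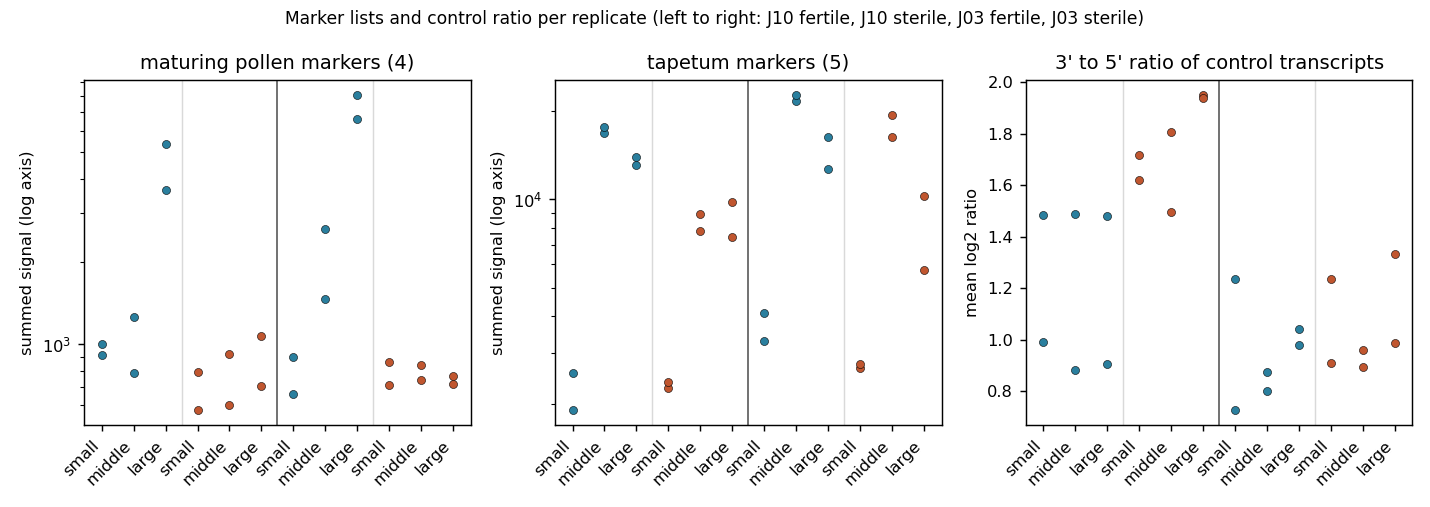
Summed signal of 4 maturing pollen markers and 5 tapetum markers (log axes) and the mean log2 ratio of 3' to 5' signal of 3 control transcripts, for each of 24 replicates. Pollen sums reach 3647 to 8066 in large fertile buds and stay at or below 1069 in sterile buds, and the control ratio is highest in sterile J10 buds.

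A stand-in for RNA integrity also moved with the groups. The mean log2 ratio of 3' to 5' signal of the actin, GAPDH and ubiquitin controls was 1.94 ± 0.0069 in large sterile J10 buds and 1.19 ± 0.407 in large fertile ones. Fertile J10 buds split by replicate number. From small to large the ratio was 0.992, 0.883 and 0.905 in replicate 1 and 1.48, 1.49 and 1.48 in replicate 2. In large J03 buds it was 1.16 ± 0.244 in sterile and 1.01 ± 0.0454 in fertile samples (SD, n = 2). With this ratio as a covariate the AT1G73600 difference in large J10 buds was -0.71 in place of -1.42. In large J03 buds that difference was -1.41 in place of -1.55. The part of the ratio in either result was not tested. The median of 36 plastid-encoded photosynthesis and NDH probe sets differed between the same buds. On the log2 scale it was 11.9 ± 0.389 in sterile and 11.02 ± 0.0374 in fertile large J10 buds, and 11.3 ± 0.703 and 10.41 ± 0.0213 in large J03 buds (SD, n = 2). Its part in the result was not tested.

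The second question was how the signal differed between successive bud sizes. AT1G73600 had a higher signal in middle than in small J03 buds, with a ratio of 6.93 in fertile and 5.57 in sterile plants. All 4 arrays of middle buds lay above all 4 of small buds in both, as they did for 5.41% of tested probe sets in fertile and 4.63% in sterile J03. The log2 differences were 2.58 and 2.22 (SE 0.37). From middle to large J03 buds the fertile plants differed by a further 1.43 and again had no overlap (3.36% of probe sets). The sterile plants differed by -0.43, with overlapping arrays.

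J10 went the same way over a smaller span. Between small and middle buds the log2 difference was 1.03 in fertile and 1.06 in sterile J10 plants, yet single arrays overlapped. The 2 kinds of array did not agree on this step. With biol_rep arrays only it was 1.87 in fertile and 2.14 in sterile plants, and with tech_rep arrays only it was 0.18 and -0.0245. In small J10 buds the tech_rep signal was 3.89 to 6.19 times that of its biol_rep partner in 4 of 4 pairs, whereas in middle J10 buds it was 0.29 to 0.858 times. The 2 kinds were averaged before the fit. Differences between kinds that both replicates share are therefore left out of the SE and the SDs given. From middle to large buds fertile J10 plants differed by 0.84, with all 4 large arrays above all 4 middle ones (3.64% of probe sets). Sterile J10 plants differed by -0.47, with overlap.

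The third question was how the lines compared at the same size and fertility. AT1G73600 was lower in J10 than in J03 in all 6 comparisons of group means, and in 5 of them all 4 J10 arrays lay below all 4 J03 arrays. The exception was small fertile buds. Among tested probe sets the share with such a separation was 4.97% in small sterile, 5.21% in middle sterile and 4.83% in large sterile buds, and 3.94% in middle fertile and 3.22% in large fertile buds. In large fertile buds J03 had 7.12 times the J10 signal, and in large sterile buds 7.6 times. In middle buds the ratio was 5.0 in fertile and 6.49 in sterile plants. In small buds it was 1.85 and 3.71.

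On the log2 scale J10 minus J03 was -2.67 in large fertile, -2.54 in large sterile, -2.08 in middle fertile and -2.51 in middle sterile buds (SE 0.37 each). Larger differences of either sign were held by 2, 10, 7 and 18 of 13999 probe sets in that order. In small buds the difference was -1.34 in sterile and -0.53 in fertile plants. The line difference in small fertile buds was 0.19 without replicate 2 of the J03 group and -1.25 without replicate 1. The line difference in middle buds less that in small buds was -1.55 in fertile and -1.16 in sterile plants (SE 0.52). This change was not tested, and the offset added before the log shrinks differences of dim signals such as those of small buds. With an offset of 16 in place of 113.0 the difference in small sterile buds was -2.02.

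Rapeseed has several copies of most Arabidopsis genes, and a signal of this Arabidopsis array does not tell them apart. The lines may differ in sequence or in copies that bind a probe. Such a difference and one in transcript amount cannot be told apart here. The 3' to 5' ratio was higher in J10 than in J03 as well. It was 1.75 ± 0.179 in sterile and 1.21 ± 0.308 in fertile J10 samples, against 1.05 ± 0.185 and 0.943 ± 0.183 in J03 (SD, n = 6 replicates over the sizes). The control probes are of Arabidopsis too, so RNA integrity and probe match cannot be told apart in this ratio. With that ratio as a covariate the line difference was -1.83 in middle sterile and -1.81 in large sterile buds. The plastid median was also higher in J10, at 11.75 ± 0.237 and 11.2 ± 0.314 in sterile and fertile samples against 10.99 ± 0.589 and 10.54 ± 0.312 in J03 (log2 scale). The part of either in the line difference was not tested.

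**Figure D3:**
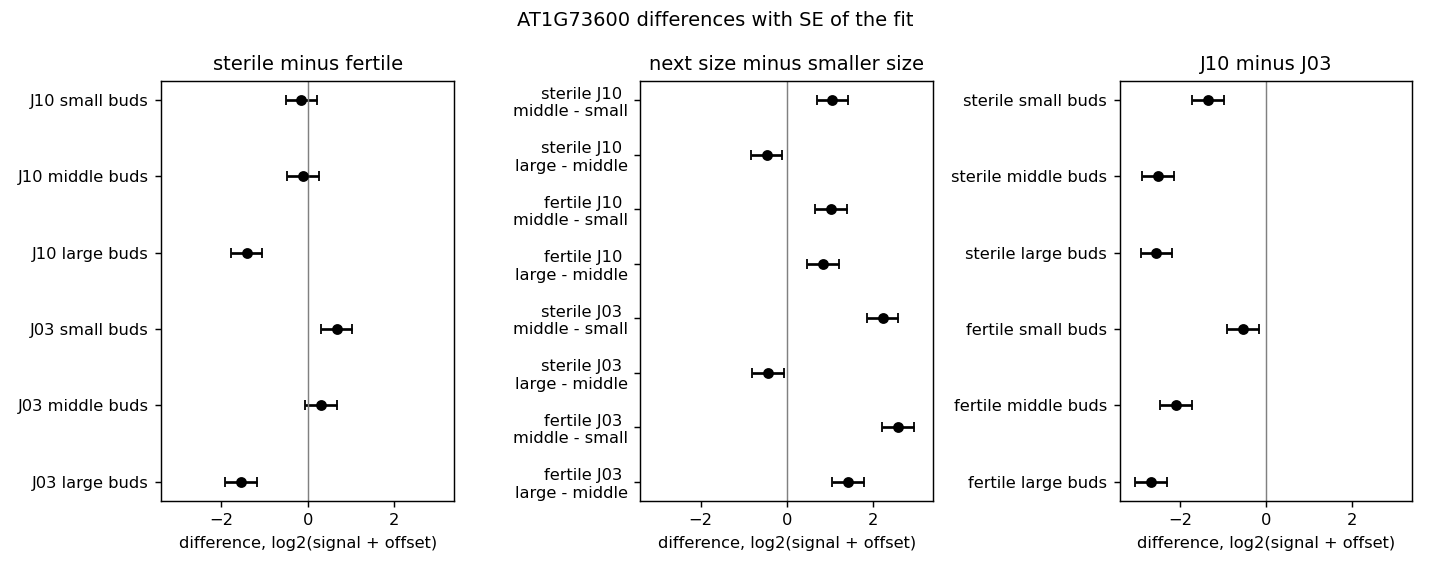
Differences of AT1G73600 on the log2(signal + offset) scale with the SE of the fit (0.37), for sterile minus fertile, successive bud sizes, and J10 minus J03. Large buds stand apart in the left panel (-1.42 in J10 and -1.55 in J03), and all 6 line differences are negative, from -0.53 to -2.67.

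To see whether neighbouring steps of the pathway moved too, 68 Arabidopsis genes of phosphatidylcholine metabolism were listed by role. The annotation named 7 of them with 1 gene, and 6 passed the filter on dim signals, so most steps were not analysed here. In limma's fit across 13999 probe sets, none of the 6 passed an adjusted p of 0.05 in any of 20 comparisons. At an unadjusted p under 0.05 there were 0 of 36 sterile-fertile tests, 9 of 48 tests between sizes and 1 of 36 between lines. At that unadjusted threshold 8.66%, 9.6% and 11.9% of all tests over the same comparisons passed. At an adjusted p of 0.05 the shares were 0.686%, 1.2% and 1.3%. Between sterile and fertile buds the share of probe sets called was 0.107%, 0.571% and 2.44% in small, middle and large J10 buds and 0.00714%, 0.0286% and 0.964% in J03. Between middle and small buds it was 0.55% in sterile J10, 1.55% in fertile J10, 2.01% in sterile J03 and 3.04% in fertile J03. Between large and middle buds it was 0.0714%, 1.13%, 0.471% and 0.814% in the same order. Between the lines it was 1.25%, 2.39% and 2.66% in small, middle and large sterile buds and 0.393%, 0.571% and 0.564% in fertile ones. The members' median log2 difference was -0.03 between sterile and fertile buds, 0.02 between sizes and -0.005 between lines, against 0.003, -0.009 and -0.004 for all probe sets.

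PMEAMT (AT1G48600) is the other family member named in the annotation and methylates phosphomethylethanolamine. Its signal was 110 ± 12.6 in small, 422 ± 366 in middle and 542 ± 12.5 in large fertile J03 buds (SD, n = 2), and 168 ± 91.3, 569 ± 11.2 and 389 ± 52.6 in fertile J10 buds. Its group mean was higher in middle than in small buds in both lines and both fertilities. In sterile J10 plants the replicates overlapped, at 191 and 629 in middle and 195 and 73.55 in small buds, and elsewhere they did not. The log2 difference was 1.33 in fertile J10 (SE 0.47, adjusted p = 0.217), 1.08 in fertile J03 (SE 0.47, adjusted p = 0.298), 1.04 in sterile J10 (SE 0.47, adjusted p = 0.483) and 0.35 in sterile J03 (SE 0.47, adjusted p = 0.865). None of these passed the test.

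Between the lines PMEAMT had differences of both signs, whereas those of AT1G73600 were all negative. In large fertile buds J10 minus J03 was -0.42 for PMEAMT (95% interval -1.39 to 0.55), and in large sterile buds it was -0.69 (-1.67 to 0.28). In middle buds it was 0.52 in fertile (-0.45 to 1.49) and 0.35 in sterile plants (-0.62 to 1.33). Sterile large buds had 224 ± 34.8 in J10 and 436 ± 286 in J03. The sterile-fertile difference of PMEAMT in large buds was -0.58 in J10 (-1.55 to 0.39) and -0.31 in J03 (-1.28 to 0.67). Whether these differ from the differences of AT1G73600 was not tested. The group means of PMEAMT and AT1G73600 correlated with r = 0.646 over 12 groups, and with r = 0.83 after each line's mean was taken out. These points share the same arrays.

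Of the choline kinases, which phosphorylate free choline, AT1G74320 had group means of 509 to 756 and AT4G09760 of 322 to 720. AT4G09760 was lowest in large fertile J03 buds, where AT1G73600 was highest, and their group means correlated with r = -0.618. Its differences between middle and small fertile J10 buds (-0.87, SE 0.34, adjusted p = 0.297) and between large and middle sterile J10 buds (0.79, SE 0.34, adjusted p = 0.723) did not pass the test. AT1G74320 had a correlation of 0.748 with AT1G73600, over a span of 0.48 on the log2 scale.

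The next step, activation to CDP-choline, was represented by CCT1, which makes CDP-choline from phosphocholine, with group means of 932 to 1747. It was 1144 ± 47.0 in small sterile J10 buds and 1747 ± 95.8 in small sterile J03 buds (-0.59, SE 0.22, adjusted p = 0.225). CCT2, the second such enzyme, had group means of 43.9 to 134 and did not reach the filter. AAPT2, an aminoalcohol phosphotransferase that joins the head group to diacylglycerol, was 900.3 ± 63.3 in middle and 1695 ± 384 in large fertile J03 buds (0.82, SE 0.26, adjusted p = 0.226). When the control ratio entered the fit as a covariate, this AAPT2 difference was 0.96 and passed the test (adjusted p = 0.0353). AAPT2 differed between sterile and fertile large buds by -0.49 in J03 (adjusted p = 0.62) and -0.47 in J10 (adjusted p = 0.439). The remaining tested member served the methyl donor cycle and passed no test either.

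**Figure D4:**
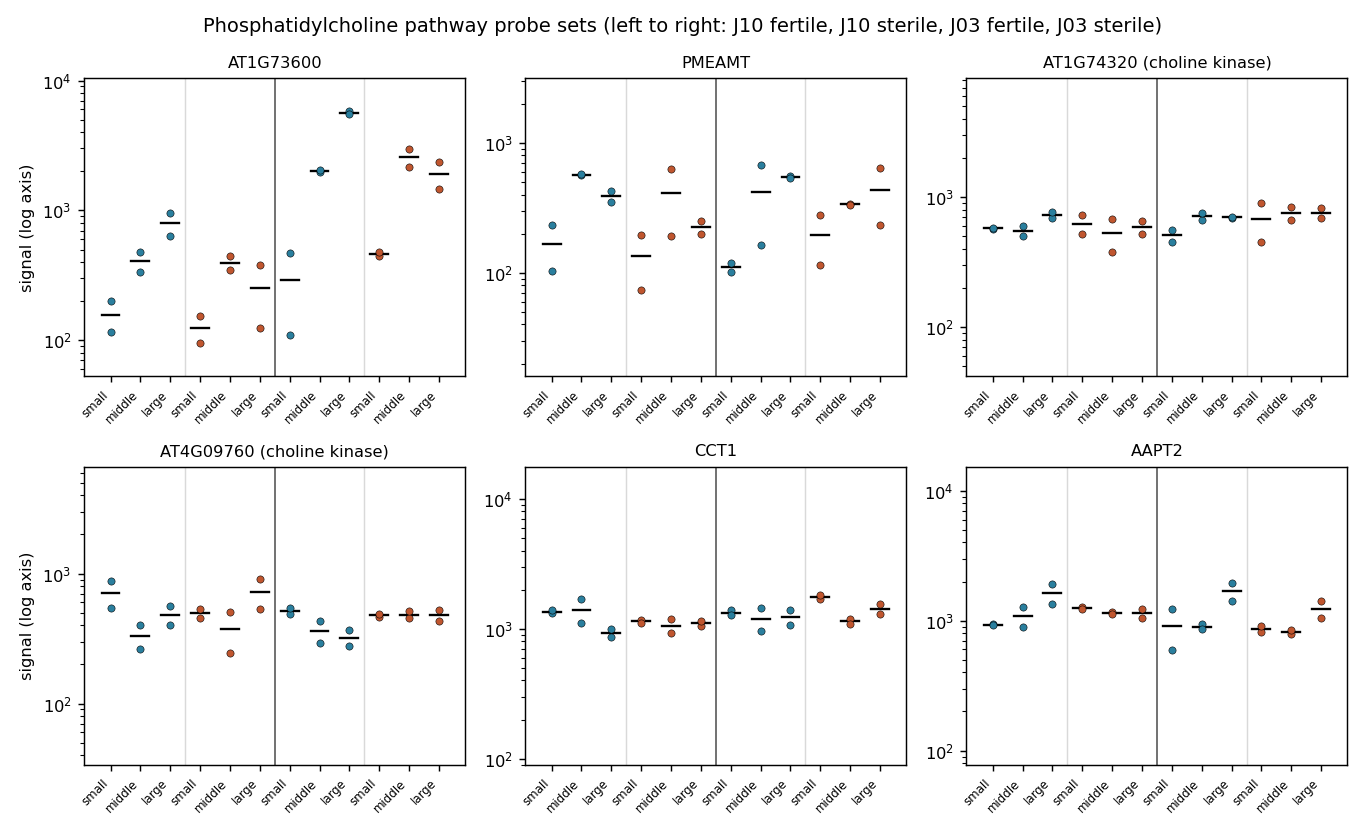
Signal (log axes spanning the same number of decades) of AT1G73600 and 5 other pathway probe sets in each of 24 replicates, with group means as black lines. Group means of AT1G73600 span 125 to 5666, and those of the others span less, for example 110 to 569 for PMEAMT and 932 to 1747 for CCT1.

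The probe sets most like AT1G73600 were sought by Pearson's r of the 12 group means on the log2 scale, among 7830 others with 1 gene. ALDH2C4, an aldehyde dehydrogenase that makes ferulic and sinapic acid, came first with r = 0.948. AT1G10640, of the polygalacturonase family, had 0.918. AT2G31790, a glucosyltransferase, and AT2G44670 both had 0.91, and AT5G11810 had 0.909. In all 7 probe sets exceeded 0.9. The points are group means that share arrays and the line difference, and the values describe likeness only.

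ALDH2C4 followed the order of groups in part (Spearman's rho = 0.916) and over a narrower span. AT1G73600 had 158 in small and 405 in middle fertile J10 buds, whereas ALDH2C4 had 861 ± 9.86 and 847 ± 12.9 there. Its signal was 1911 ± 288 in large fertile J03 buds and 1374 ± 204 in large sterile ones, and 1357 ± 88.5 and 795 ± 125 in the corresponding J10 buds (SD, n = 2). Its span over the 12 groups was 1.23 on the log2 scale, against 4.68 for AT1G73600. Over the 24 replicates its r was 0.897, the highest of all 7830. After each line's mean was taken out it was 0.904, and AT5G11810 then had 0.909, AT2G31790 0.866, AT1G10640 0.861 and AT2G44670 0.83.

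The most opposite patterns were those of the plastid gene rpl22 (r = -0.971), AT2G17930 (-0.957) and AT5G61140 (-0.944). The rpl22 signal was 1582 ± 101 in large fertile J03 buds and 8937 ± 3051 in large sterile J10 buds. AT2G17930 had 2008 ± 9.12 and 4943 ± 537 in these groups. Over 24 replicates the correlations were -0.767, -0.906 and -0.592 in the order given.

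**Figure D5:**
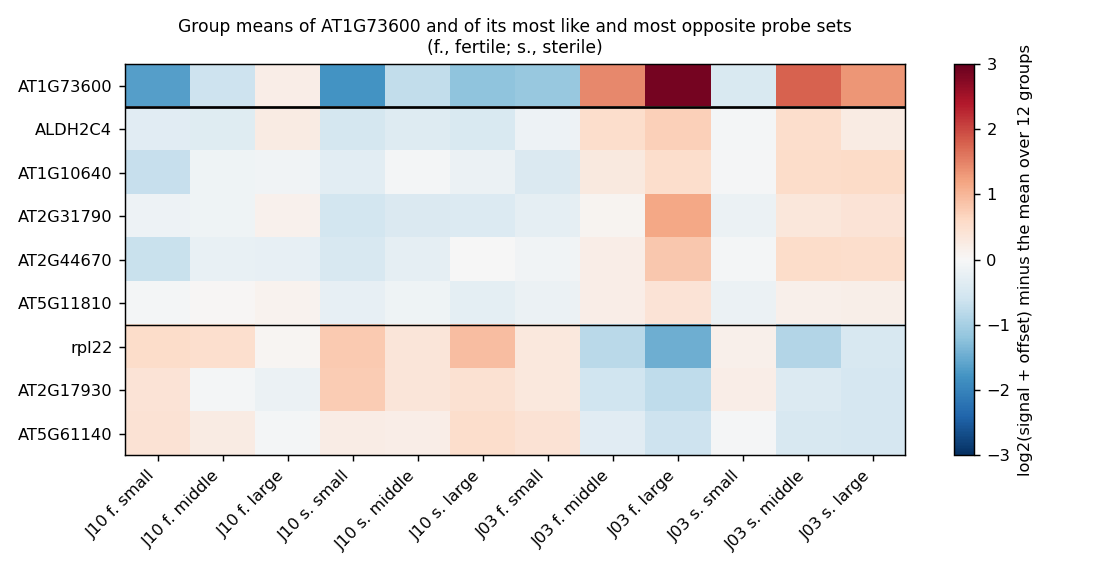
Group means on the log2(signal + offset) scale, less each probe set's mean over the 12 groups, for AT1G73600 (top row), its 5 most like and its 3 most opposite probe sets. Colours run from blue (lower) to red (higher); large fertile J03 buds are the highest group for 4 of the 5 like probe sets and the lowest for all 3 opposite ones.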

How the data were processed

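RNA of flower buds was measured on 48 Affymetrix ATH1 arrays, made for Arabidopsis. The deposited intensity values are MAS5 signals on a linear scale, per the submitters' processing notes, which give no version. The 2% trimmed mean was 500.0 on all arrays, a sign of scaling before deposit, and array medians were 339 to 412. No pair of arrays was identical. The annotation paired 13513 probe sets with 1 gene.

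Signals were changed to log2 after adding 113.0, the median over arrays of the 25th percentile, which understates differences of dim probe sets. Both hybridisations of a replicate were averaged. Probe sets were tested if both replicates of at least 1 group reached the array median, which kept 13999; AT1G73600 reached it in 6 of 12 groups. The linear model of limma 3.58.1 (R 4.3.3) was fitted to all 12 groups with an intensity trend, with Benjamini-Hochberg adjustment of the p-values in each of 20 comparisons. It was tested on simulated data. The number of arrays limits the precision, and no p-value covers more than the spread of these replicates, which may be technical. The gene, the pathway and marker lists and the naming rule were chosen with earlier results of these data known. All tested choline and head-group genes, and the 5 most like and 3 most opposite probe sets, were named. Figures used matplotlib 3.10.9.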

Additional observations from a re-analysis of the deposited data

Results flagged for a closer look

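In J03 the replicate means of AT1G73600 lay above the fertile ones in middle sterile buds and below them in large sterile buds. The sterile-fertile difference was 0.32 in middle and -1.55 in large buds, a step of 1.86 on the log2 scale (SE 0.52). The difference between the sizes was not tested, and in middle buds the single arrays overlapped. No array of the gene stood far enough from the other 3 of its group to be singled out.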

How the results depend on the processing

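All 20 differences of AT1G73600 kept their direction with an offset of 16 and with quantile normalization. A replicate block within each line could not change them, since every group holds both replicate numbers, so it was no check of their direction. Values that moved by more than the spread between replicates were -2.02 for J10 minus J03 in small sterile buds with an offset of 16, and those for single kinds of array. With biol_rep arrays only, middle minus small was 2.14 in sterile and 1.87 in fertile J10 buds, and J10 minus J03 was -1.89 in middle sterile buds; with tech_rep arrays only, an alternative chosen after seeing the data like the next one, they were -0.0245, 0.18 and -3.13. Adjusted for the control ratio (3' to 5'), the differences were -0.71 for sterile minus fertile in large J10 buds, and -1.83 and -1.81 for J10 minus J03 in middle and large sterile buds. The cause was not tested. Leaving out 1 replicate moved 3 differences that involve small fertile J03 buds: sterile minus fertile ranged from -0.0505 to 1.39, middle minus small from 1.86 to 3.30, and J10 minus J03 from -1.25 to 0.19. It also took large minus middle in sterile J10 buds from -0.47 to between -0.97 and 0.0286, and in sterile J03 buds from -0.43 to between -0.77 and -0.0987. The sterile-fertile differences in small and middle J10 buds had either sign over these settings. With 1 replicate left out, those in large buds ranged from -1.91 to -0.92 in J10 and from -1.88 to -1.21 in J03.

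The pathway genes had 0 calls by limma under every setting, including the replicate block, all 48 arrays, and the 2 kinds of array taken as the replicates, except for 1 call between sizes (AAPT2) after adjustment for the control ratio. Same-numbered replicates deviated together in J10 (r of 0.094 to 0.292 between groups) and not in J03 (-0.044 to 0.079). The main fit did not take the numbers as pairs in either line, so what J10 replicates of a number shared stayed in its error. Dim signals limit what can be said of small buds.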

Other observations

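After each line's mean was taken out, the probe sets most like AT1G73600 over the 12 group means were BGLU24, of a beta-glucosidase family (r = 0.948), AT5G02580 (0.943), AT3G42850 (0.94), AT2G46140 (0.935) and AT5G38710 (0.927). This measure was added after the values were seen. All of these except AT5G38710 had their lowest group mean in small fertile J03 buds, and all except AT3G42850 had their highest in large fertile J03 buds. AT5G02580 spanned 2.99 on the log2 scale and AT3G42850 spanned 2.07.

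In large J03 buds the tech_rep signal of AT1G73600 was 0.727 to 0.781 times that of its biol_rep partner in 4 of 4 pairs, and in large J10 buds it was 0.482 to 0.987 times.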
